A study of Drosophila melanogaster with 9 samples.

Results

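Open chromatin was compared between both knockdowns together and mock in Kc167 cells, a hemocyte-like line from Drosophila melanogaster embryos, by ATAC-seq, which uses the transposase Tn5 to tag accessible DNA with sequencing adapters. Peaks of all 9 libraries were merged into 25579 regions. A region counted as lost when each of the 3 mock libraries had a peak there and 0 of the 6 knockdown libraries had one, and as gained in the reverse case. By this rule 114 of the 14095 regions with a peak in every mock library were lost (0.809%), and 40 of the 5052 regions absent from all mock libraries were gained (0.792%). Among the 9033 regions with a peak in every library, 121 were called lower in both knockdowns (1.34%) and 21 were called higher in both (0.232%).

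The mock group (3 libraries) was transfected without RNA. The M1BPKD group (3 libraries) received 20 µg of double-stranded RNA against M1BP, and the Cp190KD group (3 libraries) received 12 µg against Cp190, each by nucleofection. Cells of the line are female, and they were kept for 5 days after transfection. Because only the knockdown cells were given double-stranded RNA, what depletion of the proteins and what the RNA itself does cannot be told apart here. Both knockdowns were set against the same 3 mock libraries, so a mock library that is high or low at a region moves both differences together. The libraries are bulk cultures of a single line, in which a site open in fewer cells and a site less open in each cell cannot be told apart.

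M1BP (Motif 1 Binding Protein) is a zinc finger factor that binds the core promoter element Motif 1 and activates constitutively expressed genes. CP190, encoded by Cp190, is a component shared by the insulator complexes of Drosophila, which separate neighbouring regulatory domains. It does not bind a motif of its own in the known complexes but is brought to DNA by partners such as Su(Hw), CTCF, BEAF-32 and M1BP. Double-stranded RNA taken up by Drosophila cells is cut by Dicer-2 and guides the cleavage of matching transcripts.

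Sequences around the summits, from the RefSeq dm6 assembly, are shown for the regions on which the results below turn. Each covers 121 bp and is named by the gene with the nearest transcript start. Capitals mark letters that match one of 8 words searched on both strands: the Motif 1 core GGTCACAC, the DRE element TATCGATA, the GAGA element GAGAGAG, the AP-1 site TGANTCA, the STAT site TTCNNNGAA, the GATA site AGATAA, the heat shock word GAANNTTC and the CTCF core AGNNGGCGC. A match describes the letters and is not evidence of a bound site. For the lost regions, a strong one without any of these words is shown first, and those near Men and hwt show the CTCF core.
Cpr76Ba, chr3L:19516710-19516830: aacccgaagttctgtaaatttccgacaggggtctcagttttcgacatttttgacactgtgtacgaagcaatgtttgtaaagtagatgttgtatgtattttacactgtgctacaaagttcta
Men, chr3R:12723892-12724012: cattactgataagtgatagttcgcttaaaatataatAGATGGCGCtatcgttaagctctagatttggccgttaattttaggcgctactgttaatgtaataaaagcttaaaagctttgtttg
hwt, chrX:12540898-12541018: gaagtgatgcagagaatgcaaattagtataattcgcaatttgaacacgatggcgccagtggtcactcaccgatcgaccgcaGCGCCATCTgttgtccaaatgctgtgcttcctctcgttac
For the gained regions, the one nearest the start of ras had the highest mean percentile, and the other windows show the AP-1 word.
ras, chrX:10742613-10742733: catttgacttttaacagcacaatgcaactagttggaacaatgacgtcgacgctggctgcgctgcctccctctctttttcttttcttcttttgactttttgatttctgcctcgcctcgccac
lncRNA:CR44363, chr3L:11408486-11408606: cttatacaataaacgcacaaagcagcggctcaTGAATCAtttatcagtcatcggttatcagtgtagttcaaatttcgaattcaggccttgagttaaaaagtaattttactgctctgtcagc
CG33252, chrX:16901452-16901572: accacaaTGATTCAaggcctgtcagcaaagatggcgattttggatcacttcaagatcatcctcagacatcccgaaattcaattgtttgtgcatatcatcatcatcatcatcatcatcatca
For the regions that fell, the MtnA window is that of the largest fall, and the other windows show the CTCF core.
MtnA, chr3R:9784424-9784544: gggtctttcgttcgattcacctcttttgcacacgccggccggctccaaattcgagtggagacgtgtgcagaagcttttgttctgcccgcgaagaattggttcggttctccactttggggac
Eaat2, chr2L:740186-740306: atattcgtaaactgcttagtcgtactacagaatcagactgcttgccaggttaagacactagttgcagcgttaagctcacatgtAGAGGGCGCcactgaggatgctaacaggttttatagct
CG7509, chr3L:4805904-4806024: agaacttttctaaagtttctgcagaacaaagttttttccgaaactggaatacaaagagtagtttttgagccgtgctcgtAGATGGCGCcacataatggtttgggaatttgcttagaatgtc
For the regions that rose, both windows hold the AP-1 word, which overlaps a STAT word near Mkp3.
Mkp3, chr3L:19087016-19087136: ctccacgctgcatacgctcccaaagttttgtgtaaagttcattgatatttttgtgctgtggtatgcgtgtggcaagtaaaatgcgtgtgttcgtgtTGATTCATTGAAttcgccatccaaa
CG14269, chrX:3434049-3434169: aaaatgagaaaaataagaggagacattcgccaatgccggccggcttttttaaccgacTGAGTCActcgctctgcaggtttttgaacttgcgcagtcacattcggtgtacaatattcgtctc

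The lists held 17178 to 18959 peaks in mock, 13464 to 15232 in M1BPKD and 18005 to 18625 in Cp190KD. The mean of the 6 knockdown lists minus that of the mock lists was -1805.5 peaks (two-sided exact permutation test, p = 0.25), where 84 assignments allow a smallest p of 0.0238. They covered 7.89 ± 1.36 Mb (SD, n = 6) against 8.79 ± 0.224 Mb in mock (SD, n = 3), with p = 0.393 in the same exact test. The share of summits in exons was 25.0% ± 6.70 (SD, n = 6) against 30.04% ± 0.403 (SD, n = 3), with an exact p of 0.357. None of these differences held for both knockdowns. M1BPKD minus mock was -3602 peaks, -2.10 Mb and -11.0 percentage points (exact p = 0.1 each, the smallest p that 3 against 3 allows). For Cp190KD the differences were -9 peaks, 0.283 Mb and 0.846 percentage points (exact p = 1, 0.3 and 0.4). Total reads per library are not in the lists. The number of fragments at each summit could be recovered from the fold enrichment and the p-value, and the lowest local background, a guide to depth, was 39.7 to 41.7 fragments per base in mock, 29.5 to 35.2 in M1BPKD and 39.1 to 46.4 in Cp190KD. The median GC content around the summits was 50.2 to 50.7% in mock, 46.3 to 47.3% in M1BPKD and 50.2 to 51.2% in Cp190KD. Hence M1BPKD libraries stood apart from the others in length, background and GC, and their part in the results below was not tested. Defining genes of hemocytes had a promoter peak in all 9 libraries for 6 of 11 (srp, Hml, Pxn, eater, crq and ush), against 1 of 5 for neurons, 0 of 5 for muscle, 0 of 4 for germline and 0 of 5 for fat body.

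The strength of a peak is given as the percentile of its −log10 q among the peaks of its own list, from 0 for the weakest to 100 for the strongest. At the promoter of M1BP the percentile was 77.6, 85.3 and 89.1 in mock, 61.4, 64.5 and 67.5 in M1BPKD, and 84.2, 76.2 and 82.9 in Cp190KD. At the promoter of Cp190 it was 83.7, 83.7 and 83.2 in mock, 67.2, 79.5 and 75.9 in M1BPKD, and 87.4, 85.6 and 86.2 in Cp190KD. Thus each promoter was lower in M1BPKD (limma adjusted p = 0.00241 and 0.0247), and neither passed the test in Cp190KD (adjusted p = 0.887 and 0.841). The differences in M1BPKD were -19.5 and -9.29 percentile points. Falls were common there: 44.7% of regions with a peak in every library were lower in M1BPKD, and the median difference over all of them was -5.90. RNA interference acts on the transcript, so the promoter values do not check the depletion.

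**Figure D1:**
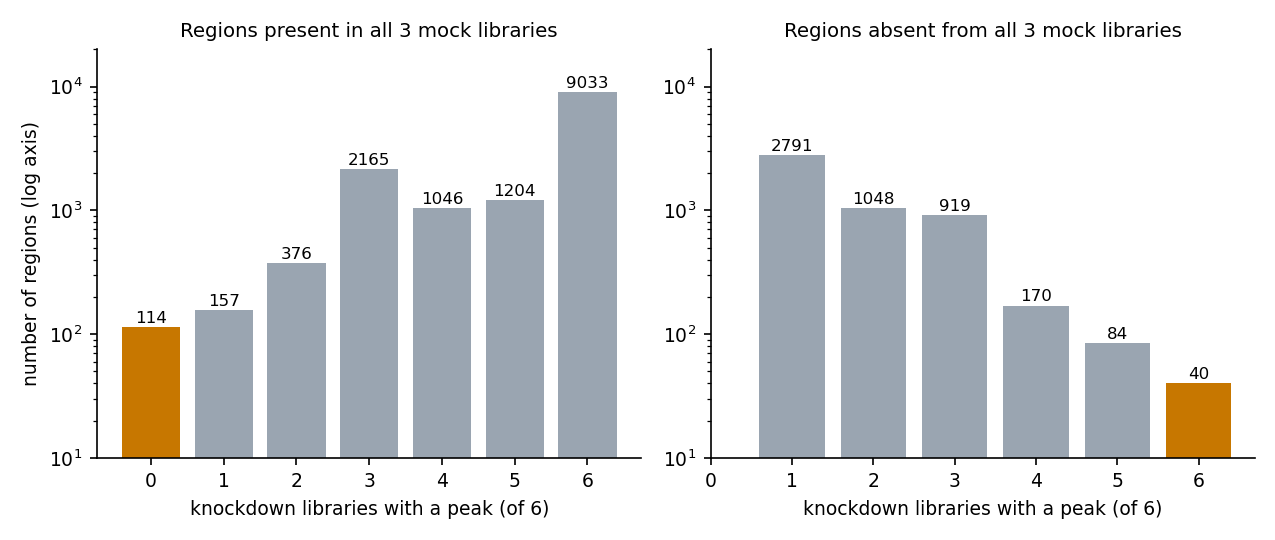
Number of merged regions (log axis) by how many of the 6 knockdown libraries had a peak there, for regions present in all 3 mock libraries (left) and absent from all of them (right). The orange bars are the 114 regions lost and the 40 regions gained in both knockdowns.

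Of regions present in all mock libraries, 2110 had no peak in any M1BPKD library (15.0%) and 598 had none in any Cp190KD library (4.24%). The 114 lost regions are those without a peak in either group. They make up 19.1% of the 598 and 5.403% of the 2110, next to 15.0% and 4.24% of all regions present in mock, and since both groups share the mock libraries nothing is read from this overlap. Just outside the rule, 157 further regions had a peak in exactly 1 knockdown library, which was a Cp190KD library for 107 of them and an M1BPKD library for 50. Their median percentile in mock was 18.2, next to 21.6 for the lost regions and 59.3 for all regions present in mock. The plot of regions by number of knockdown libraries shows 9033 regions at the other end, with a peak in all 6.

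Lost regions were mostly weak. Their median width was 283.5 bp, against 600 bp for all regions present in mock. A merged width spans the peaks of all libraries, and by the rule lost regions hold mock peaks only, so this difference is not read as a trait. When mock regions were split into quintiles by mean percentile, 83 of 2819 were lost in the weakest quintile (2.94%), against 19, 9, 2 and 1 of 2819 in the stronger quintiles. The lowest −log10 q over the 3 mock libraries was at least 10 for 37 of the 114 regions, at least 20 for 12 and at least 50 for 2. Such a region is a peak that no longer passed the threshold of the peak caller (−log10 q of 4), which is not the same as closed chromatin. None of the 114 had a knockdown peak within 100 bp, 1 had such a peak within 200 bp and 50 within 1000 bp. When 1 mock library was left out the lost regions rose in number, to 189 without mock replicate 1, 246 without replicate 2 and 194 without replicate 3.

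The strongest lost region lay in the 3′ UTR exon of drd, 2295 bp from the start of RpL37-1, a gene for a protein of the large ribosomal subunit (chrX:15136970-15137167). It had 342, 337 and 381 fragments at the summit in the 3 mock libraries, at percentiles 88.3, 88.3 and 91.1, and no peak in any knockdown library. In mock it was among the stronger peaks of every list. The next was in an intron of pdm3, which encodes a POU domain transcription factor (chr2R:8394460-8394663), with 207, 176 and 191 fragments in mock. An intergenic region 1562 bp from the start of Cpr76Ba, a cuticle protein gene (chr3L:19516663-19516845), had 171, 181 and 158 fragments. Both sat between percentiles 63.4 and 79.1 in every mock library.

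Further lost regions of the 10 strongest lay in an intron of tou (chr2R:11596937-11597141; percentiles 66.5, 71.2 and 61.8 in mock), 11841 bp from the start of CG31337 (64.3, 67.9 and 62.0) and 51548 bp from that of spok, an ecdysone biosynthesis gene (63.9, 59.8 and 66.7). Promoters among the 10 were those of Fatp3, a fatty acid transport gene (63.5, 65.9 and 50.8), CG6329 (62.8, 53.6 and 63.7) and CG31098 (58.2, 54.9 and 60.8). The last of the 10 lay nearest the start of CG15043 (50.5, 51.9 and 50.6), in its gene body, and counts as a promoter because it is in the promoter window of another start. These regions were narrow, and 7 of the 10 were at most 205 bp wide.

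**Figure D2:**
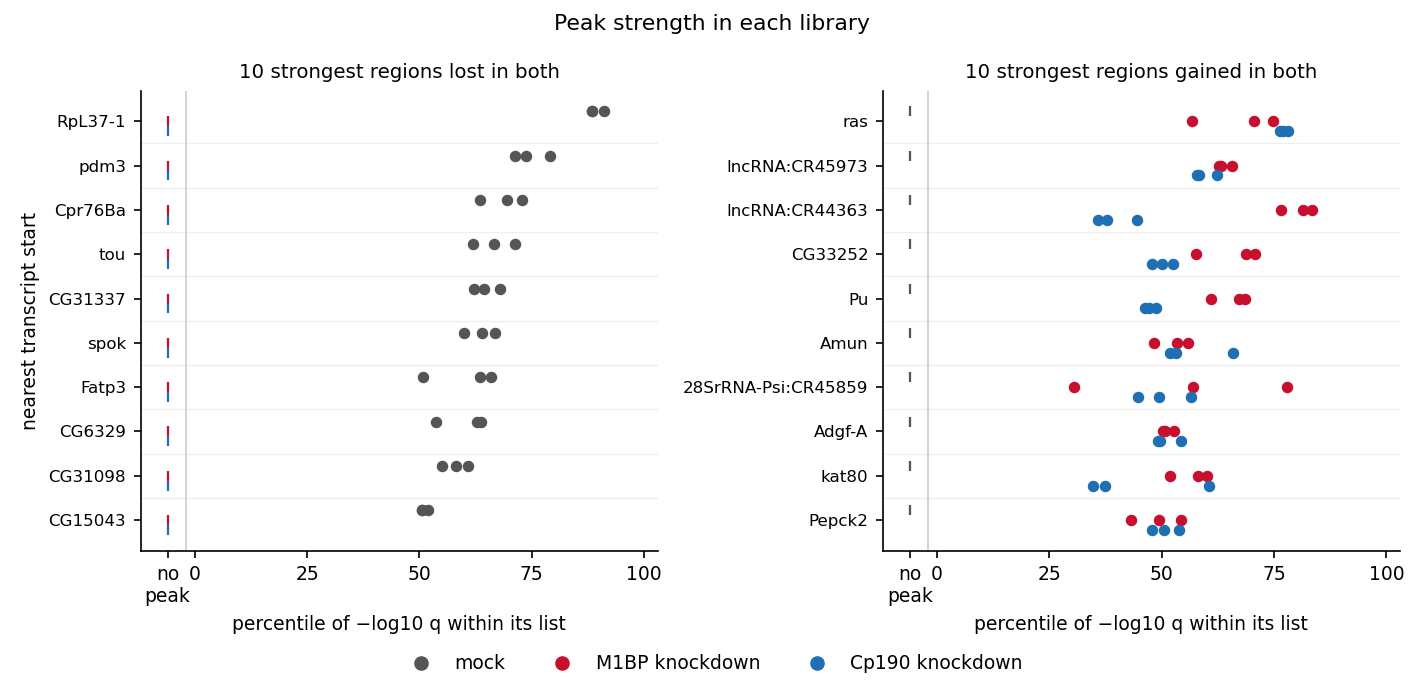
Percentile of −log10 q within its list (x axis) for the 10 lost and the 10 gained regions with the highest mean percentile, by nearest transcript start, with 1 point per library and ticks at "no peak" for libraries without a peak. The 3 mock libraries lie at 88.3 to 91.1 near RpL37-1 and at 50.5 to 51.9 near CG15043, and the gained region near ras lies at 56.8 to 78.2 in the 6 knockdown libraries.

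Gained regions needed a peak in all 6 knockdown libraries. Their strength and width beside other regions that mock lacked therefore reflect the rule and are not read as a trait. In the M1BP knockdown 811 of the 5052 regions absent from mock had a peak in all 3 libraries (16.1%), and in the Cp190 knockdown 280 did (5.54%). The 40 gained in both make up 14.3% of the 280 and 4.93% of the 811, near the shares of all regions absent from mock, and the shared mock libraries again allow no reading of the overlap. The 40 gained in both had a median knockdown percentile of 40.5 and a median width of 356 bp, against 15.6 and 217 bp for all regions absent from mock, where a peak in 1 library sufficed. Just outside the rule, 84 regions had a peak in 5 knockdown libraries and none in mock, at a median percentile of 36.6. The lowest −log10 q over the 6 libraries was at least 10 for 26 of the 40 regions and at least 20 for 7. Within 1000 bp a mock peak was found for 25 of the 40, and within 100 bp for 1. The number rose to 77 without mock replicate 1, to 72 without mock replicate 3 and to 86 without Cp190KD replicate 1.

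The gained region with the highest mean percentile lay in an intron of stx, 1829 bp from the start of ras, which encodes IMP dehydrogenase of guanine nucleotide synthesis (chrX:10742579-10742794). Its summit held 345, 432 and 413 fragments in M1BPKD and 538, 596 and 535 in Cp190KD. The fold enrichment over the local background was modest, at 2.73 to 3.06 in M1BPKD and 2.48 to 2.69 in Cp190KD. Mock had no called peak there, and its fragments at this place are not in the lists. The region near lncRNA:CR45973 (chr3L:20403231-20403464) held 381, 390 and 334 fragments in M1BPKD and 301, 330 and 324 in Cp190KD. At the intergenic region near lncRNA:CR44363 (chr3L:11408344-11408854) the counts were 248, 280 and 283 in M1BPKD and 130, 147 and 123 in Cp190KD. Here the knockdown groups did not overlap, with M1BPKD above Cp190KD in each library.

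The promoter of Pu, which encodes GTP cyclohydrolase, was gained 88 bp from its start, at percentiles 61.1, 68.5 and 67.2 in M1BPKD and 48.7, 46.3 and 47.2 in Cp190KD. An intron shared by the adenosine deaminase genes Adgf-A and Adgf-A2 lay at 50.7, 52.8 and 50.3 in M1BPKD and at 54.3, 49.6 and 49.2 in Cp190KD. A region near the start of kat80, a katanin subunit gene, lay at 51.9, 60.05 and 58.0 and at 37.3, 60.5 and 34.9. An intron of Pepck2, for phosphoenolpyruvate carboxykinase, lay at 43.1, 54.3 and 49.4 and at 50.4, 53.8 and 48.0. The other members of the 10 were near CG33252, Amun and 28SrRNA-Psi:CR45859. The last of these ranged from 30.4 to 77.8 over the 3 M1BPKD libraries, the widest spread of a group among the 10.

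**Figure D3:**
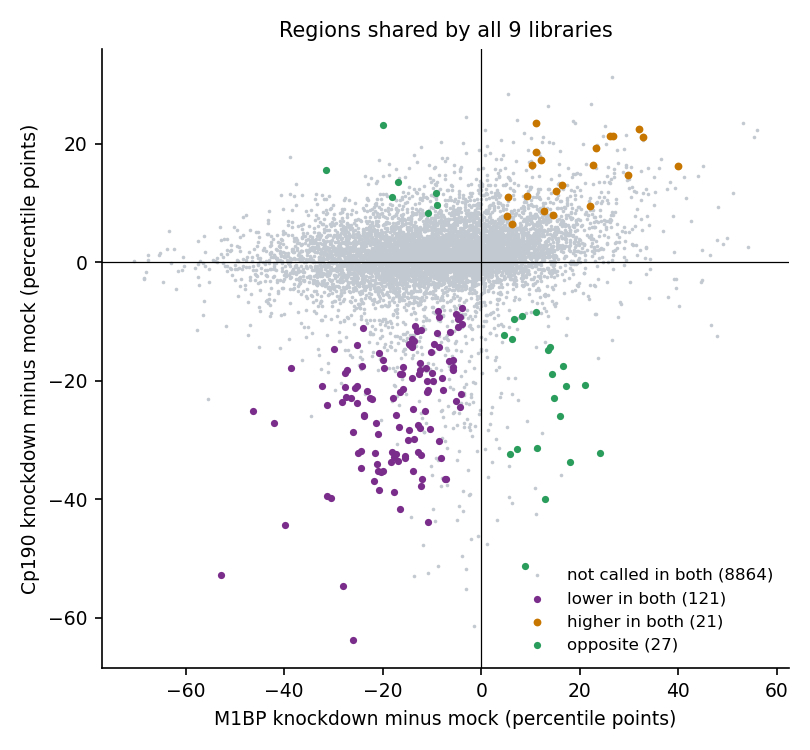
Difference in percentile of the M1BP knockdown from mock (x axis) and of the Cp190 knockdown from mock (y axis), in percentile points, for the 9033 regions shared by all libraries. The 121 regions called lower in both are purple, the 21 called higher in both are orange, and the 27 called in opposite directions are green. Both axes use the same 3 mock libraries.

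Among the 9033 shared regions, the difference was below 0 in both knockdowns for 2678 and above 0 in both for 2049. These counts come from contrasts with the same mock libraries and carry no test. Limma called 4038 regions lower (44.7%) and 1164 higher (12.9%) in M1BPKD, and 249 lower (2.76%) and 47 higher (0.520%) in Cp190KD, at an adjusted p under 0.05. The 121 regions lower in both make up 48.6% of the 249 and 3.00% of the 4038, next to 44.7% and 2.76% of all shared regions, and the 21 higher in both make up 44.7% of the 47 and 1.804% of the 1164, next to 12.9% and 0.520%. The contrasts share the mock libraries, so nothing is read from either overlap. The median difference over all shared regions was -5.90 percentile points in M1BPKD and 0.830 in Cp190KD. Of the 121 regions lower in both, 109 lay below that median in M1BPKD, and the 21 higher in both lay above it in Cp190KD. The call alone puts every region lower in both below the Cp190KD median, and every region higher in both above the M1BPKD median. By libraries alone, 495 shared regions had every knockdown value under every mock value (5.48%) and 275 had the reverse (3.04%). This held for 120 of the 121 and 20 of the 21 called regions, which were called on the same values. Called in both but in opposite directions were 27 regions, 20 of them higher in M1BPKD and lower in Cp190KD. Of the 142 regions called in the same direction, 85.2% were lower. That share was 65.4% when regions were ranked among shared regions only, 76.7% on log2 fold enrichment, 75.3% on log2 summit fragments, 66.0% and 47.2% with peaks of −log10 q of at least 10 and 20, and 48.5% with equal numbers of peaks per list, so a prevalence of falls depended on the scale. Without mock replicate 2 or 3 the number of regions called lower was 79 and 73. The number called higher was 13 without M1BPKD replicate 3, 5 without Cp190KD replicate 2 and 7 without Cp190KD replicate 3.

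The 121 regions that fell had a median difference of -15.4 percentile points in M1BPKD and -22.9 in Cp190KD, and ranged from -52.7 to -3.87 and from -63.7 to -7.64. On the log2 fold enrichment scale, centred on all shared regions, the medians were -0.29 and -0.55. The length covered by peaks was below that of every mock library at 40 of the 121 regions in M1BPKD and at 94 in Cp190KD. Over all 9033 shared regions this held for 3194 in M1BPKD, about as large a share, and for 537 in Cp190KD.

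The largest mean fall was 114 bp upstream of MtnA, which encodes a copper-binding metallothionein (chr3R:9784236-9784808). The summit held 252, 236 and 250 fragments in mock, 89, 111 and 93 in M1BPKD and 104, 125 and 92 in Cp190KD. In percentiles, mock lay at 86.3, 82.6 and 84.1, M1BPKD at 24.7, 39.8 and 30.4, and Cp190KD at 26.4, 44.2 and 24.02. The 6 knockdown libraries lay far below the mock libraries, and the knockdown groups overlapped each other. The differences were -52.7 ± 5.74 percentile points (SE; limma adjusted p = 0.000317) in M1BPKD and -52.8 ± 5.74 (adjusted p = 0.00212) in Cp190KD.

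An intron of Eaat2, an excitatory amino acid transporter gene, fell nearly as far (chr2L:739510-741555). Its fragments were 355, 311 and 339 in mock, 155, 147 and 165 in M1BPKD, and 158, 151 and 129 in Cp190KD. The mock libraries stood above every knockdown library by over 100 fragments. The percentile differences were -39.9 ± 2.25 (SE; limma adjusted p = 2.45e-05) and -44.4 ± 2.25 (adjusted p = 8.80e-05).

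DopEcR, a receptor for dopamine and ecdysteroids, differed in the size of its fall. The region 187 bp upstream of its start lay at 62.8, 70.1 and 67.0 in mock, at 45.5, 35.8 and 40.5 in M1BPKD and at 3.48, 1.62 and 3.66 in Cp190KD. All 3 groups were separate, with Cp190KD among the weakest peaks of its lists. The differences were -26.0 ± 2.75 (SE; limma adjusted p = 0.000279) in M1BPKD and -63.7 ± 2.75 (adjusted p = 3.78e-05) in Cp190KD. The region upstream of CG7509 also fell further in Cp190KD, from 80.1, 65.7 and 79.7 in mock to 50.3, 43.8 and 46.9 in M1BPKD and 28.4, 15.5 and 17.6 in Cp190KD. In an exon of fzr, an activator of the anaphase-promoting complex, the order was reversed. There, near CG3009, mock lay at 53.8, 53.6 and 54.1, M1BPKD at 4.06, 16.0 and 2.42, and Cp190KD at 26.4, 33.1 and 26.6.

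An intron of Mur2B near sncRNA:400 fell from 77.5, 78.7 and 79.0 in mock to 41.4, 50.6 and 51.8 in M1BPKD and 36.2, 45.2 and 34.5 in Cp190KD. The promoter region of CG13912, a strong peak in mock (93.8, 94.1 and 92.3), fell to 70.5, 66.7 and 69.5 and to 67.0, 54.3 and 54.5. Those near Ugt301D1, CG40191 and CG15279 completed the 10 largest falls, with no overlap between knockdown and mock libraries. The calls near CG40191 and Ugt301D1 held in 9 of 17 and 10 of 16 alternatives, and in 2 and 4 of 9 with a library left out. Further down the list, an intron of EcR, the ecdysone receptor gene (chr2R:6151097-6151475), lay at 93.4, 93.4 and 93.5 in mock, 81.9, 85.3 and 80.6 in M1BPKD and 49.7, 53.4 and 45.4 in Cp190KD. This region was picked after its values were seen.

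**Figure D4:**
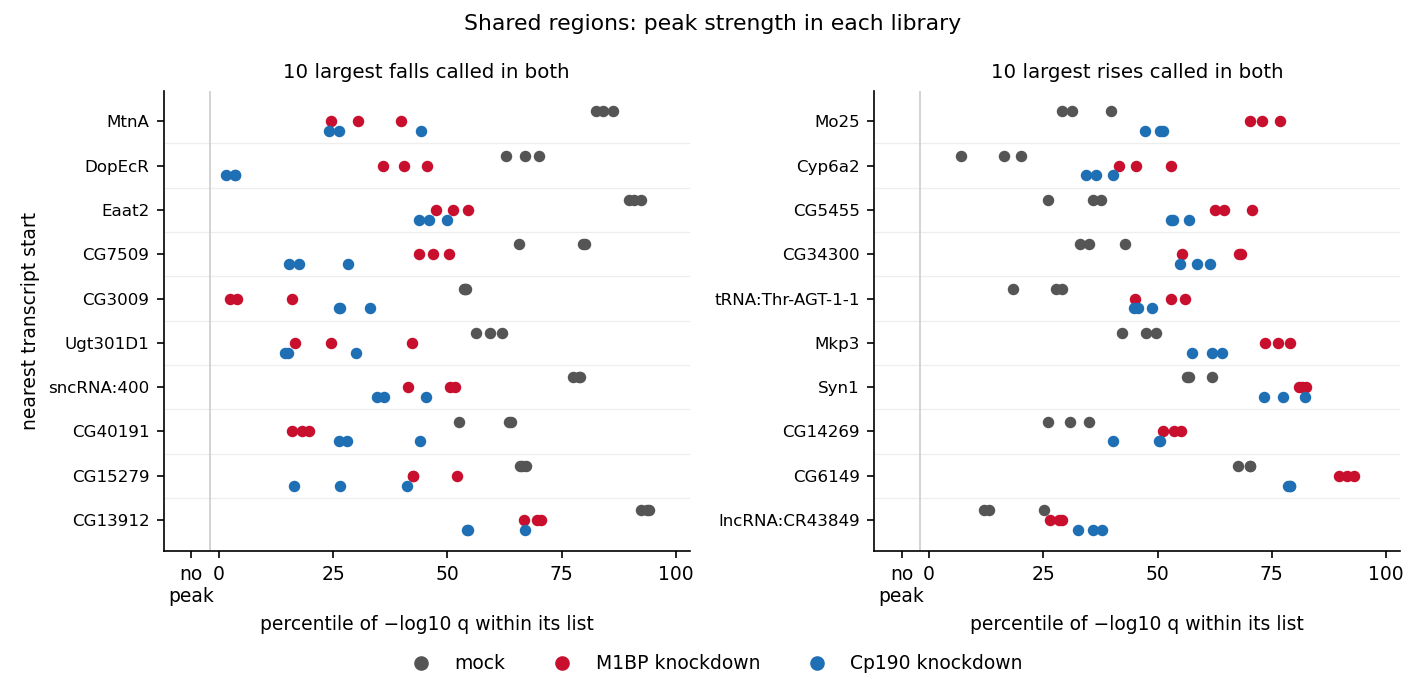
Percentile of −log10 q within its list (x axis) in each library for the 10 largest falls (left) and 10 largest rises (right) called in both knockdowns with no overlap between knockdown and mock libraries, by nearest transcript start. Near MtnA the mock libraries lie at 82.6 to 86.3 and the knockdown libraries at 24.02 to 44.2, and near Syn1 they lie at 56.4 to 61.9 and at 73.2 to 82.5.

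The 21 regions that rose had median differences of 15.2 percentile points in M1BPKD and 16.3 in Cp190KD, with ranges of 5.17 to 39.9 and 6.44 to 23.5. Their median percentile in mock was 46.5, against 77.7 for the regions that fell. The covered length exceeded that of every mock library at 15 of the 21 in M1BPKD and at 13 in Cp190KD. Over all 9033 shared regions this held for 1853 in M1BPKD and 1363 in Cp190KD. An intron of Abl, a tyrosine kinase gene, had the largest mean rise, and its summit lay nearest the start of Mo25 (chr3L:16630432-16631293). It held 96, 98 and 110 fragments in mock, 209, 209 and 220 in M1BPKD, and 135, 138 and 122 in Cp190KD. The groups did not overlap, with Cp190KD between the others. The differences were 39.9 ± 3.03 (SE; limma adjusted p = 7.49e-05) and 16.3 ± 3.03 (adjusted p = 0.0297). The call in both knockdowns held in 7 of 18 alternatives, and in 3 of 9 with a library left out.

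Upstream of Mkp3, which encodes a phosphatase that restrains MAP kinase signalling, the percentiles were 47.5, 42.2 and 49.7 in mock, 73.4, 76.3 and 79.0 in M1BPKD, and 57.6, 62.0 and 64.1 in Cp190KD. Each M1BPKD library was above each Cp190KD library, and these were above mock. At the start of Syn1, a syntrophin gene (48 bp upstream), they were 56.4, 61.9 and 56.8 in mock, 80.9, 82.5 and 81.7 in M1BPKD, and 77.5, 82.3 and 73.2 in Cp190KD. Syn1 rose by 23.3 ± 2.51 (SE; limma adjusted p = 0.000303) and 19.3 ± 2.51 (adjusted p = 0.00519), and of the 10 named rises it alone passed in each of 19 alternatives. The region upstream of Cyp6a2, a cytochrome P450 gene, started low in mock (20.1, 16.4 and 7.002) and lay at 41.7, 45.2 and 52.96 in M1BPKD and 36.5, 34.2 and 40.2 in Cp190KD, but its call held in 5 of 15 alternatives.

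The remaining large rises lay in an exon of plum (near CG5455), in introns of heca, tai and pxb, and in intergenic or intronic regions near CG6149 and CG14269. The calls for pxb and CG14269 rest on few settings: they held in 4 of 16 and 6 of 18 alternatives, and each in 1 of 9 with a library left out. An intron of puc, a phosphatase that limits JNK signalling, lay at 41.7, 37.9 and 44.9 in mock, 45.8, 54.8 and 55.2 in M1BPKD, and 57.2, 59.2 and 57.3 in Cp190KD. Near the start of Tab2, an adaptor of Imd signalling, the values were 77.6, 74.4 and 78.3, then 92.8, 89.7 and 91.4, then 83.1, 86.2 and 84.9. Knockdown libraries were above mock at both genes without overlap, and both genes were picked after their values were seen.

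Members lay near each other in places. Of the 61 regions that were gained or rose, 11 fell into 4 runs in which neighbours were at most 50 kb apart, and of the 235 that were lost or fell, 62 fell into 27 runs. The longest run of rises spanned 98.2 kb around Myc, a growth regulator, and CG12535 (chrX:3352238-3450416) and held 3 regions that rose, 2 that were gained and 0 that fell or were lost. Within Myc and lncRNA:CR44999 a region (chrX:3379389-3379887) lay at 57.4, 53.7 and 53.9 in mock, 60.4, 66.4 and 65.8 in M1BPKD, and 66.1, 67.9 and 64.4 in Cp190KD. All knockdown libraries were above mock there. The gained exonic region within the bodies of Myc, CG12535 and lncRNA:CR44999 (chrX:3389403-3389744) lay at 64.4, 65.9 and 65.4 in M1BPKD and 32.1, 19.9 and 34.5 in Cp190KD. Of the 28 merged regions in the span, 12 were shared by all libraries, and 10 of these had differences above 0 in both knockdowns, as did 22.7% of all shared regions. On 3L the gained region near lncRNA:CR44363 and the risen region near CG6149 spanned 23.9 kb together, and the latter moved from 67.6, 70.1 and 70.2 in mock to 89.8, 92.9 and 91.4 in M1BPKD and 78.5, 78.9 and 79.0 in Cp190KD. Runs of 3 falling regions included Eaat2 with GABA-B-R3 and CG12506 over 35.2 kb, and 3 regions within 29.5 kb at Glut1, a glucose transporter gene. The runs were picked after their values were seen and carry no test. How often equally many other regions lie so close is not given here, so nothing is read from the counts of runs.

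Fewer members lay at promoters than was the case for the regions they were drawn from, except the gained ones. A promoter was counted from a transcript start to 1500 bp upstream. Of the lost regions 29.8% had their summit in a promoter and 36.0% in an exon, against 47.2% and 27.1% of all regions present in mock. Within the weakest quintile of mock regions, which held 83 of the 114, the promoter share was 28.9% for lost and 22.6% for all regions, and the exon share was 43.4% and 51.5%. The order of both shares thus turned around in the weakest quintile. In the next one, with 19 lost regions, lost regions had fewer of both, at 26.3% against 34.0% for promoters and 21.1% against 36.4% for exons. Of the gained regions 37.5% were in promoters, 45.0% in introns and 7.50% in exons, against 23.4%, 29.4% and 30.6% of regions absent from mock. The latter needed a peak in only 1 library and were weaker, so this contrast is not read as a trait of gained regions. Of the regions that fell 20.7% were intergenic, 26.4% intronic and 34.7% in promoters, against 6.19%, 17.8% and 56.9% of shared regions. By class, 4.47% of intergenic, 2.00% of intronic, 1.22% of exonic and 0.817% of promoter shared regions fell in both. Only 9 of the 121 summits lay within 100 bp of a transcript start (7.44%), against 39.6% of shared regions. GC content moved with these sets: the median was 54.0% in lost and 43.0% in gained regions, against 49.8% and 49.3% in the regions they were drawn from, and the M1BPKD lists as a whole were lower in GC. The part of GC in these shares was not tested, and the weaker comparison set of the gained regions applies to their GC as well.

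**Figure D5:**
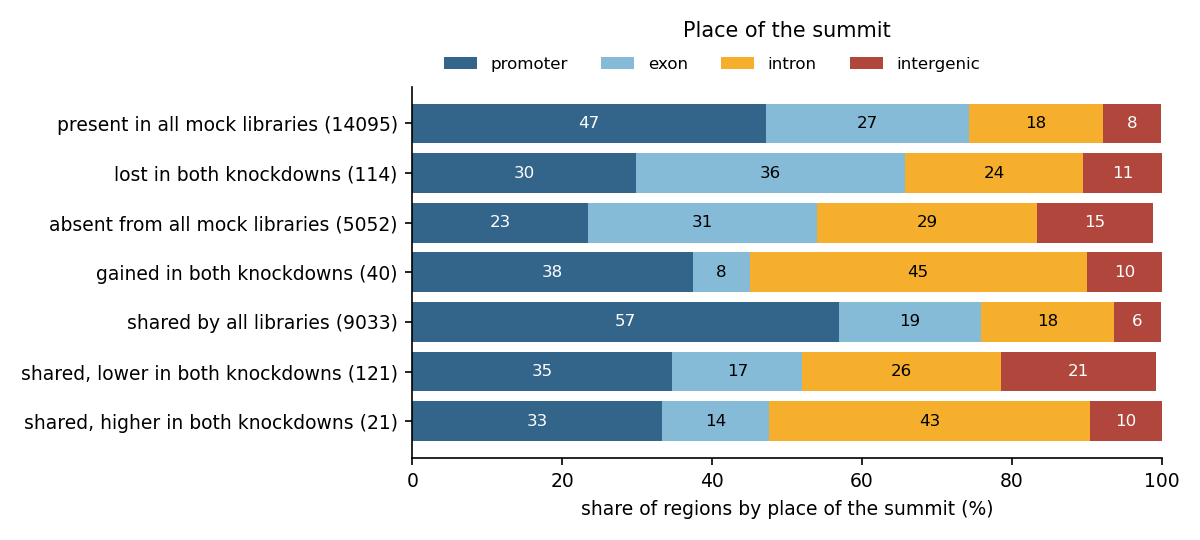
Share of regions (x axis, %) whose summit lay in a promoter, an exon, an intron or between genes, for each called set below the regions it was drawn from, with the number of regions in parentheses. Intergenic summits make up 20.7% of the 121 regions that fell and 6.19% of the 9033 shared regions.

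Sequence words were counted in 201 bp around each summit. The CTCF core AGNNGGCGC, bound by the insulator protein CTCF, was found in 19 of the 121 regions that fell (15.7%) and in 306 of the 9033 shared regions (3.39%), with a share of 3.93% over all merged regions. Put the other way, 6.21% of shared regions with the word fell in both knockdowns, against 1.34% of all shared regions. Among the regions that fell, the word was in 9 of 42 in promoters (21.4%), 7 of 32 in introns (21.9%), 2 of 21 in exons and 1 of 25 between genes, next to 3.52% and 2.31% of all shared promoter and intronic regions. Members with the word included those of Eaat2, CG7509, sgll, EcR, Asator, Atpalpha, Eip74EF and Tak1. The word was also in 10 of the 114 lost regions (8.77%), against 3.88% of those present in mock, in 1 of the 40 gained and in 0 of the 21 that rose. Of regions lost in Cp190KD it was in 8.03% of 598, about the share of those lost in both, and of regions lost in M1BPKD in 4.22% of 2110. For falls, each knockdown alone gave 11.2% of 249 regions lower in Cp190KD and 3.54% of 4038 lower in M1BPKD. The share in regions lower in both stayed between 13.2% and 17.8% when each library was left out in turn, and between 12.1% and 16.8% under 5 other scales or fits. The regions that fell had a lower median GC (46.3%) than all shared regions (47.8%). The word was added after the printed windows were seen, and carries no test.

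The Motif 1 core, the site of M1BP itself, was in 1 of 114 lost, 0 of 40 gained, 1 of 121 fallen and 0 of 21 risen regions. It was in 5.31% of shared regions, 4.08% of those present in mock, 0.701% of those absent from it and 2.51% of all regions. For gained and risen regions, 0 is near what these shares give for so few regions. Motif 1 is a core promoter element, and 7.44% of fallen summits lay within 100 bp of a start, against 39.6% of shared regions. The part of place in the low counts was not tested. The DRE element was in 1 lost, 2 gained, 0 fallen and 0 risen regions, against 3.90% of regions present in mock, 0.681% of those absent from it, 5.42% of shared and 2.40% of all regions. The AP-1 word, bound by Jra and kay, was in 6 of 40 gained (15.0%) and 3 of 21 risen regions (14.3%), against 7.52% of regions absent from mock and 5.62% of shared regions, and in 2 lost and 4 fallen regions. A gained region, in Myc, and a risen region, near CG14269, with this word lie in the run around Myc. The GATA word was in 7 gained and 5 risen regions (17.5% and 23.8%), against 10.02% of regions absent from mock, 9.20% of shared and 8.08% of all regions, and in 6 lost and 9 fallen. The GAGA, STAT and heat shock words were in 5, 3 and 5 gained, 3, 2 and 2 risen, 3, 5 and 3 lost and 7, 3 and 5 fallen regions, where the shares were 4.29%, 5.49% and 4.75% of regions absent from mock, 11.7%, 4.61% and 4.77% of shared regions and 8.83%, 4.47% and 4.30% of those present in mock. Over all regions these shares were 6.66%, 4.504% and 4.25%. With 40 and 21 regions, a single region is a large part of such a share. By the rule, the regions absent from mock were also weaker than the gained ones, so those shares are not like for like.

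Genes that act in the response to double-stranded RNA were among the lists examined. A listed gene was counted where all 9 libraries had a peak within 100 bp of one of its transcript starts and that peak was the one that set the value of the tested shared region, a condition set after the values were seen. Without the condition, 9 of 13 genes of RNA interference were lower and 1 higher in M1BPKD, and 6 and 6 of 20 heat shock and stress genes. Of 20 genes of RNA interference and double-stranded RNA sensing, 11 met this, of which 8 were lower and 0 higher in M1BPKD, and 0 were called in Cp190KD. The condition left out vir-1 and AGO1. At the start of vir-1 the peak was higher in M1BPKD (94.5, 95.8 and 95.1) than in mock (82.6, 82.6 and 80.6), so 0 higher rests on the condition. At the start of AGO1 the libraries of M1BPKD and mock overlapped. The median difference of the 11 was -12.4 percentile points in M1BPKD and 0.646 in Cp190KD, next to -5.90 and 0.830 over all shared regions. These counts stand beside 44.7% lower and 12.9% higher among all shared regions in M1BPKD. Of 23 genes of Toll, Imd and JAK-STAT signalling, 19 were counted, of which 8 were lower and 8 higher in M1BPKD, and 1 was lower in Cp190KD. That gene, the kinase Tak1 of Imd signalling, was the only counted gene of these lists called in the same direction in both knockdowns: 91.8, 88.8 and 91.5 in mock, 85.2, 88.4 and 86.9 in M1BPKD (limma adjusted p = 0.0449), and 82.6, 82.5 and 84.03 in Cp190KD (adjusted p = 0.0276). Its fall of -3.87 points in M1BPKD was smaller than the median shift of all shared regions there. Of 9 antimicrobial peptide genes 6 had no promoter peak in any library. Of 22 heat shock and stress genes 16 were counted, with 3 lower and 6 higher in M1BPKD and 0 called in Cp190KD. Of 14 insulator protein genes 11 were counted, with 3 lower and 2 higher in M1BPKD and 0 called in Cp190KD, and of 7 housekeeping genes 6 were counted, with 3 lower, 2 higher and again 0. No listed promoter was lost or gained in both knockdowns.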

How the data were processed

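ATAC-seq peaks of 9 Kc167 libraries were analysed, 3 per group as the sample titles give them, and the study's methods call them biological replicates. The authors trimmed reads with cutadapt 1.8.1, aligned them to dm6 (FlyBase release 6.24) with Bowtie2 2.3.5, filtered with samtools 1.9 and Picard, and called peaks per library with MACS2 2.2.5 at a q-value of 0.0001 without control. A shift for Tn5 was not stated. The deposited lists give the fold enrichment ratio at the summit, −log10 p and −log10 q, a score that repeats −log10 q on another scale, and the summit offset in bases. Reads, on which the study ran its differential test, were not used here, so strengths are ranks within a list and depth per library is unknown.

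Peaks sharing at least 1 bp were merged, and the best −log10 q per library and region was ranked. Percentiles at regions with a peak in all 9 libraries were fitted with limma 3.58.1 (R 4.3.3; 3 groups, Benjamini-Hochberg over 9033 regions), and a region was called when both contrasts had an adjusted p under 0.05 in the same direction. Single values per library were compared by exact permutation tests. Fragments at the summit were solved from the fold enrichment and p, and came out whole within 0.05 for 100% of peaks. Genes are from Ensembl release 115, sequences from RefSeq, and 351 of 153300 peaks on unplaced sequences were not annotated. Code used python 3.11.15, numpy 2.4.6, pandas 2.3.3, scipy 1.17.1 and matplotlib 3.10.9, and was tested on simulated data. Named were the 10 strongest lost and gained regions, the 10 largest falls and rises without overlap, and listed genes called in both. The members and lists were chosen with earlier results of these data known. Alternatives were stricter peaks, equal list lengths, other overlaps, scales, filters and thresholds, a replicate block, and leaving out each library.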

Additional observations from a re-analysis of the deposited data

Results flagged for a closer look

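Of the 20 named regions that fell or rose in both knockdowns, 10 differed between M1BPKD and Cp190KD by limma, given here as the percentile of M1BPKD minus that of Cp190KD with 3 libraries in each. The share of all shared regions that differed in this way is not given here, so nothing is read from this count. Of those that fell, DopEcR differed by 37.7 (adjusted p = 5.40e-05), CG7509 by 26.5 (adjusted p = 0.00259), CG15279 by 17.6 (adjusted p = 0.0311) and CG13912 by 10.3 (adjusted p = 0.0291), each lower in Cp190KD. The regions near CG3009, in fzr, and CG40191 were lower in M1BPKD, by -21.2 (adjusted p = 0.00200) and -14.8 (adjusted p = 0.0368). Of those that rose, Mo25 differed by 23.6 (adjusted p = 0.000563), Mkp3 by 15.0 (adjusted p = 0.00216), CG6149 by 12.6 (adjusted p = 0.000238) and CG5455 by 11.6 (adjusted p = 0.0202), each higher in M1BPKD. The M1BPKD lists were shorter than those of Cp190KD, and the part of this in these values was not tested.

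In 2 of 33 groups of 6 knockdown libraries a single library stood apart by Dixon's test. The gained region near ras had a percentile of 56.8 in M1BPKD replicate 1, below the other knockdown libraries, and the risen region near CG14269 had 40.2 in Cp190KD replicate 1. Chance flags about 1 in 20 groups.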

How the results depend on the processing

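The direction of each named region was the same in every alternative in which it could be followed. Named falls and rises could be followed only where the region kept a peak in every library used. This left 14 to 19 alternatives per region, and the others are not in the counts below. The 10 lost regions stayed lost in 160 of 160 alternatives, and the 10 gained regions stayed gained in 152 of 160. Leaving out a library or loosening the rule cannot undo such a call, and the strongest lost regions were far above the stricter thresholds. Most of these outcomes were thus fixed in advance, and they are not read as robustness. Among the named falls 149 of 165 alternatives kept the call, and among the named rises 107 of 174. The counts moved more. Lost regions (114) were 39 with −log10 q of at least 20, 56 with equal list lengths, 271 when 1 knockdown peak was allowed and 393 when 2 mock libraries sufficed, with a range of 127 to 246 when a library was left out. Gained regions (40) were 124 when 5 knockdown libraries sufficed, 121 when 1 mock peak was allowed, and 45 to 86 when a library was left out. Regions lower in both (121) were 51 with −log10 q of at least 20, 1282 when the mean of the knockdowns was a single contrast, 495 by non-overlap of libraries, and 73 to 132 when a library was left out. Regions higher in both (21) were 66 when ranked among shared regions, 40 on log2 fold enrichment, 38 on log2 summit fragments (a scale chosen after seeing the data), 49, 57 and 102 with −log10 q of at least 10, of at least 20 and equal list lengths, 594 as a single contrast, 275 by non-overlap, and 5 to 25 when a library was left out.

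The sample titles state no batch for the replicate numbers. Deviations of libraries with the same number correlated at -0.152 to 0.0589. Libraries with different numbers were not set beside them, so these values do not decide whether the numbers pair the libraries. With replicate as a block, 92 regions were lower and 11 higher in both. The difference in number of peaks reversed to 9.5 with −log10 q of at least 20 (exact p = 1), and for Cp190KD alone covered length and exon share reversed, to 0.283 Mb and 0.846 percentage points. Leaving out a library gave -2335 to -1212 peaks, -1.20 to -0.576 Mb and -6.54 to -3.33 points. Depth limits the calls: a peak near the threshold can be missed in a shallower library, and the lists hold no signal below it.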
